A study of Mus musculus with 6 samples.

Results

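Interferon signalling and interferon-stimulated genes were followed in mouse muscle satellite cells, the Pax7-expressing stem cells of skeletal muscle, after a high-fat diet or chow. The set was a given list of 50 genes that covers interferon receptors, STAT and IRF transcription factors, interferon-stimulated genes and antigen presentation genes. Each symbol was matched to 1 of the 27179 Entrez gene IDs in the count files, and all 50 were found. The cells were sorted by flow cytometry from muscle of wild-type C57Bl/6N mice, and 3 RNA-seq libraries were made for each diet. Every library shares this strain and genotype, and diet is the only labelled difference. The labels give neither the duration of the diet nor whether replicates were separate or pooled animals. The p-values therefore set the difference between diets against the spread among libraries of the same diet, and that spread may be technical.

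Interferons are secreted proteins that alert cells to infection. Type I interferons bind the receptor pair Ifnar1 and Ifnar2, and interferon gamma binds Ifngr1 and Ifngr2. Janus kinases on these receptors phosphorylate STAT proteins. Complexes that hold Stat2 and Irf9 then bind the interferon-stimulated response element (ISRE), whereas STAT dimers bind the gamma-activated site (GAS). The target genes encode sensors of foreign RNA, enzymes that block viral replication, ubiquitin-like modifiers, and the proteins that cut, carry and display peptides on class I major histocompatibility molecules. Many cells keep a low tonic expression of these genes without infection.

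Gene counts summed to between 14930394 and 18217818 per library, and 13202 genes were tested. Levels are CPM, counts scaled to a common library size after TMM normalisation. The detection floor, set at 3 reads, was worth 0.162 to 0.195 CPM. The 11 satellite cell markers summed to 4984 to 5858 CPM on chow and to 4669 to 6017 CPM on the high-fat diet, ranges that overlapped. Within this list 2 markers were lower and 2 higher at an unadjusted p under 0.05 in edgeR, none of them past the adjusted threshold. Pax7 itself was at 370, 405 and 430 CPM on chow and 171, 247 and 283 CPM on the high-fat diet, without overlap (log2 fold change -0.78, SE 0.20, adjusted p = 0.180). Myod1, a factor of activated satellite cells, had a log2 fold change of -0.70 (adjusted p = 0.502) and overlapped, and Itga7 and Chrdl2 lay higher without overlap, at 0.59 and 0.56 (adjusted p = 0.328 and 0.373). Their part in the interferon gene values was not tested. Markers of immune cells were low. The 13 macrophage and monocyte markers summed to 19.2 to 56.8 CPM on chow and 9.22 to 29.7 CPM on the high-fat diet, with Adgre1, C1qa, Fcgr1 and Tyrobp at 0 in every library. The 11 lymphocyte markers summed to 1.89 to 6.94 CPM on chow and 1.62 to 4.86 CPM on the high-fat diet, and 6 of them, Cd3e among these, were at 0 throughout. The 8 dendritic cell markers, which include the listed gene Bst2, summed to 22.2 to 39.9 and 22.7 to 27.9 CPM, and the 7 neutrophil markers to 0 to 14.0 and 0 to 0.390 CPM. The 9 endothelial markers summed to 248 to 334 and 232 to 363 CPM. Among them Tek had means of 172 and 161 CPM, and only Kdr lay apart, higher (log2 fold change 1.41, adjusted p = 0.442 in edgeR). The 9 fibro-adipogenic progenitor markers summed to 467 to 691 and 598 to 813 CPM. The 7 pericyte and smooth muscle markers summed to 705 to 826 and 557 to 794 CPM, with Notch3 at means of 599 and 539 CPM. The 8 myofibre markers summed to 19.0 to 32.3 and 9.91 to 24.3 CPM. In these bulk libraries fewer cells of a type and less RNA per cell cannot be told apart.

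In the high-fat diet libraries 2 interferon genes fell, 0 rose, and most of the others lay on the lower side without passing the test. The ubiquitin ligase gene Rnf213 fell 2.50-fold and the helicase gene Helz2 fell 1.99-fold. Of the 50 genes, 48 passed the filter on low counts. The exceptions were Mx1, at 0 in all 6 libraries, and Oas1a, with at most 5 reads in a library. Calls were made with edgeR's quasi-likelihood test and Benjamini-Hochberg adjustment over all genes, at an adjusted p below 0.05. This left 2 of 48 lower, where 0.167% of all tested genes were called lower and 0.258% in either direction. No member was called higher with edgeR (background 0.0909%), DESeq2 or limma-voom, and on the higher side 0 had an unadjusted p under 0.05 (background 3.7%). On the lower side 13 of 48 did, against 3.95% of all tested genes (7.65% in either direction). DESeq2 called 5 members and limma-voom 3, where they called 1.51% and 0.75% of all genes, and without a filter edgeR called 7, against 0.839%.

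The same lean was seen in the signs and in the raw order of the libraries. A negative log2 fold change was found for 40 of 48 members, against 50.5% of all tested genes. The median was -0.79 over the members and -0.0081 over all tested genes. For 14 of 48 members all 3 high-fat diet libraries lay below all 3 chow libraries, against 7.87% of all tested genes, and for 0 members they all lay above, against 7.42%. Of the 48, 39 reached the filter's level in all 6 libraries. Another 3, Eif2ak2, Usp18 and Ifit3, reached it in all chow libraries but not in all high-fat diet libraries. Eif2ak2 and Usp18 are among the 14 and were not removed from that count. Among the 35 members whose mean over the 6 libraries reached 10 CPM, 2 were called lower, 13 had an unadjusted p under 0.05 on the lower side, 13 lay lower without overlap, 31 were negative and the median was -0.77. Of all 7425 tested genes at that level 0.283% were called lower, 5.82% had such a p, 9.35% lay lower without overlap and 49% were negative, with a median of 0.01.

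**Figure D1:**
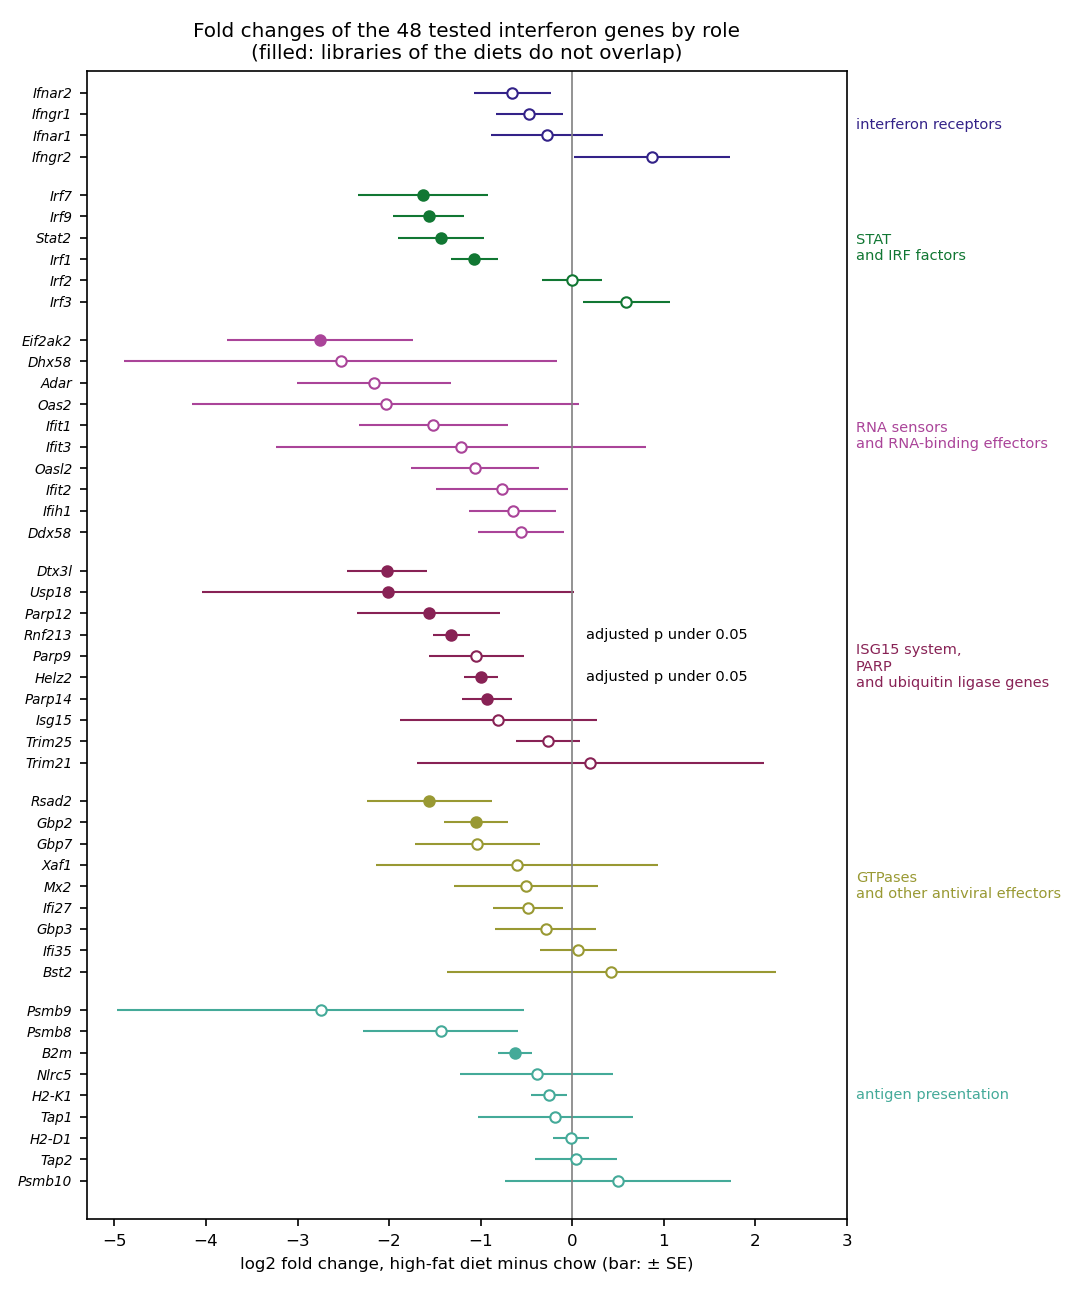
Log2 fold change of each tested interferon gene (horizontal axis, high-fat diet minus chow, bars ± SE) by role, filled where the 3 libraries of one diet all lie below the 3 of the other. Filled points all lie to the left of 0, and Rnf213 and Helz2 are the 2 genes with an adjusted p under 0.05.

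The receptors showed no call. Ifnar1, the chain of the type I receptor that carries the kinase Tyk2, was at 34.2, 35.9 and 13.1 CPM in chow libraries 1, 2 and 3 and at 6.70, 18.5 and 43.3 CPM in high-fat diet libraries 1, 2 and 3. Its high-fat diet values spanned the whole chow range, and the log2 fold change was -0.28 (SE 0.61, adjusted p = 0.999). Without high-fat diet library 1 its sign turned, to 0.17. Ifnar2, its partner chain, was at 61.2, 30.4 and 26.2 CPM on chow and 22.2, 30.3 and 22.4 CPM on the high-fat diet. Chow library 1 stood above the other 5, which overlapped (log2 fold change -0.65, SE 0.42, adjusted p = 0.837).

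The interferon gamma receptor chains pointed in opposite directions, and neither passed. Ifngr1, which binds the ligand, was at 27.8, 42.3 and 49.7 CPM on chow and 32.4, 24.4 and 29.8 CPM on the high-fat diet. The diets overlapped (log2 fold change -0.47, SE 0.37, adjusted p = 0.907). Ifngr2, the signalling chain, was at 2.07, 7.81 and 8.27 CPM on chow and 7.28, 10.4 and 15.7 CPM on the high-fat diet. Here too the ranges overlapped, and the log2 fold change was 0.88 (SE 0.85, adjusted p = 0.950). For these 4 receptor genes the 95% intervals of the difference ran from -1.59 to 1.04 (Ifnar1), -1.55 to 0.25 (Ifnar2), -1.26 to 0.32 (Ifngr1) and -0.95 to 2.70 (Ifngr2) on the log2 scale, so changes of more than 2-fold in either direction are inside at least 1 of them.

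Of the 6 transcription factors 4 were lower in every high-fat diet library than in every chow library, although 0 of the 6 reached an adjusted p under 0.05 in edgeR (at an unadjusted p under 0.05 there were 4). Over all tested genes 7.87% were lower without overlap and 3.95% had such a p on the lower side. The group's median log2 fold change was -1.25. Stat2 (chromosome 10, 128270498 to 128292853), the STAT that is specific to type I and III interferon signalling, was at 130, 117 and 151 CPM on chow and 11.6, 59.2 and 76.6 CPM on the high-fat diet. The groups did not overlap, and high-fat diet library 1 lay far below its replicates. The log2 fold change was -1.43 (SE 0.47, adjusted p = 0.371). It was called with limma-voom (adjusted p = 0.0362) and with no filter on low counts, and its adjusted p ranged from 0.175 to 0.678 when 1 library was left out.

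Irf9 (chromosome 14, 55603985 to 55610030), the DNA-binding partner of Stat2, was at 48.5, 60.9 and 63.9 CPM on chow and 11.1, 27.3 and 20.1 CPM on the high-fat diet. Every chow library exceeded every high-fat diet library, and the gap between the diets was wider than the range of either (log2 fold change -1.57, SE 0.39, adjusted p = 0.171). DESeq2 called it (adjusted p = 0.0211). Irf1 (chromosome 11, 53770014 to 53778374), an activator that interferon gamma induces through a GAS, was at 85.3, 108 and 133 CPM on chow and 53.1, 43.9 and 58.4 CPM on the high-fat diet. The spread among the chow libraries was the wider one, and the groups did not overlap (log2 fold change -1.07, SE 0.26, adjusted p = 0.163, and 0.0223 with DESeq2). Irf7, which amplifies type I interferon production, was at 14.4, 13.6 and 18.4 CPM on chow and 4.10, 5.37 and 5.50 CPM on the high-fat diet. The diets were apart, and the log2 fold change was -1.63 (SE 0.71, adjusted p = 0.613).

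The remaining factors differed from these. Irf2, a factor that competes with Irf1 at its sites, was at 45.8, 35.2 and 39.6 CPM on chow and 43.6, 43.9 and 33.1 CPM on the high-fat diet. Its means were 40.2 ± 5.31 and 40.2 ± 6.12 CPM (SD, n = 3 each), and the 95% interval of the difference ran from -0.70 to 0.70 on the log2 scale. Irf3, which is made constitutively and activated by phosphorylation, was at 16.6 ± 1.41 CPM on chow and 25.0 ± 7.87 CPM on the high-fat diet (SD, n = 3 each), a log2 difference of 0.59 (SE 0.48, adjusted p = 0.919).

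**Figure D2:**
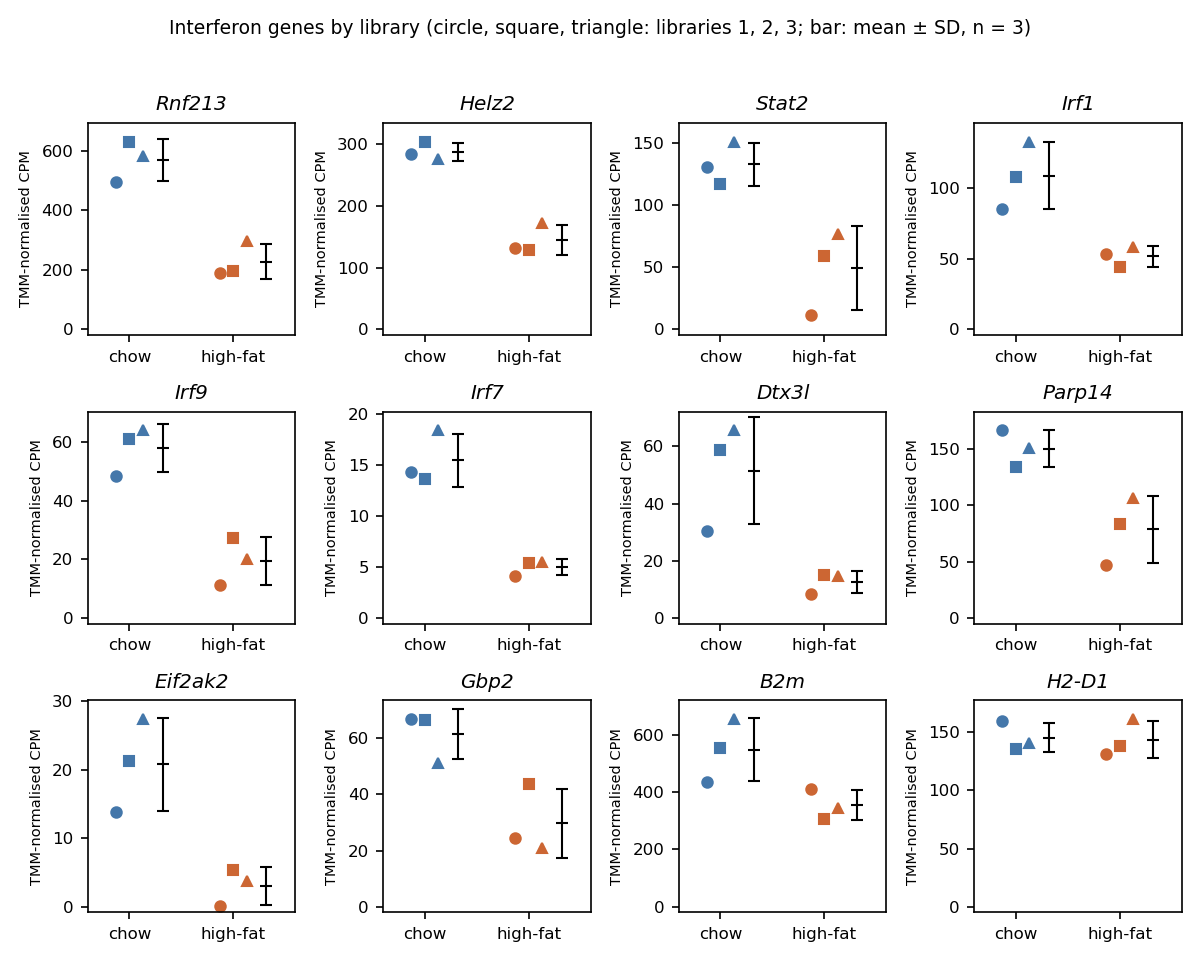
TMM-normalised CPM (vertical axes from 0) of 12 interferon genes in the 3 chow and 3 high-fat diet libraries, with marker shape giving the library number and bars the mean ± SD (n = 3). Every panel but H2-D1 shows all chow libraries above all high-fat diet libraries. High-fat diet library 1 is the lowest in Rnf213, Stat2, Irf9, Irf7, Dtx3l, Parp14, Eif2ak2 and H2-D1.

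Both calls came from the group of ubiquitin ligase, PARP and ISG15 genes, where 9 of 10 log2 fold changes were negative (median -1.02) and 6 of 10 members were lower without overlap, against 50.5% and 7.87% of all tested genes. Rnf213 (chromosome 11, 119389950 to 119487418), a giant AAA-type ATPase and E3 ubiquitin ligase with antimicrobial activity, was at 494, 631 and 583 CPM on chow and 191, 195 and 297.4 CPM on the high-fat diet. The lowest chow library was well above the highest high-fat diet library. The log2 fold change was -1.32 (SE 0.20, adjusted p = 0.0143). Its exons sum to 16888 bases, the longest of the members with a GENCODE length, and the microRNA gene Mir1932 lies within its span. Leaving out high-fat diet library 1 ended the call (adjusted p = 0.0551), as did leaving out high-fat diet library 2 (0.114), chow library 2 (0.0994) or chow library 3 (0.0892). Over the 6 fits that left out 1 library its log2 fold change ran from -1.56 to -1.20.

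Helz2 (chromosome 2, 181227615 to 181242058) encodes a helicase-domain protein known as a coactivator of PPAR nuclear receptors. It was at 284, 304 and 276 CPM on chow and 132, 129 and 172 CPM on the high-fat diet. Both groups were tight and lay far apart (288 ± 14.7 against 144 ± 24.2 CPM, SD, n = 3 each, log2 fold change -0.99, SE 0.18, adjusted p = 0.0445). The call sat close to the threshold. It was kept without high-fat diet library 3 (adjusted p = 0.0236) and ended when any other library was left out (0.140 and 0.239 for high-fat diet libraries 1 and 2, and 0.139, 0.215 and 0.159 for chow libraries 1, 2 and 3), with log2 fold changes from -1.14 to -0.92. Upper quartile scaling (adjusted p = 0.0511) and scaling to total counts (0.0573) also ended it, while DESeq2 (0.000124) and limma-voom (0.00645) called it.

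Dtx3l and Parp9 encode an E3 ligase and an ADP-ribosyltransferase that work as a heterodimer, and their genes overlap on chromosome 16 (35926515 to 35939027 and 35938470 to 35972621), so that reads of the shared stretch cannot be assigned without a known strand setting. Dtx3l was at 30.4, 58.6 and 65.6 CPM on chow and 8.32, 15.03 and 14.7 CPM on the high-fat diet. All high-fat diet libraries were lower than chow library 1, which was itself low among the chow libraries (log2 fold change -2.02, SE 0.44, adjusted p = 0.102, and 0.00276 with DESeq2). Parp9 was at 14.9, 39.99 and 43.5 CPM on chow and 15.02, 9.59 and 22.98 CPM on the high-fat diet. Chow library 1 fell among the high-fat diet values, so the groups overlapped (log2 fold change -1.05, SE 0.52, adjusted p = 0.691).

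Parp14, a further ADP-ribosyltransferase whose gene lies beside this pair (35831892 to 35871518), was at 166, 134 and 151 CPM on chow and 47.3, 83.3 and 106 CPM on the high-fat diet. The diets did not overlap (log2 fold change -0.93, SE 0.27, adjusted p = 0.291). Parp12, an ADP-ribosyltransferase with antiviral activity, was at 29.4, 27.2 and 17.2 CPM on chow and 0.911, 8.95 and 14.9 CPM on the high-fat diet. High-fat diet library 1 was again the lowest, and the highest high-fat diet library was just under the lowest chow library (log2 fold change -1.57, SE 0.78, adjusted p = 0.694).

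The ISG15 modifier itself was weakly expressed. Isg15, a ubiquitin-like protein that is among the most inducible interferon targets, was at 4.58, 8.22 and 9.59 CPM on chow and 6.63, 1.09 and 5.07 CPM on the high-fat diet. The groups overlapped, and the 95% interval of the log2 fold change (-0.81, adjusted p = 0.985) ran from -3.12 to 1.51. Usp18, which removes Isg15 from proteins and restrains the type I receptor, was at 1.69 to 3.26 CPM on chow. On the high-fat diet Usp18 was at 0 to 0.959 CPM, without overlap but close to the floor. It reached the filter's level in all chow libraries but not in all high-fat diet libraries, and it counts among the group's members without overlap. The ligase genes Trim25, which ubiquitinates the RNA sensor encoded by Ddx58, and Trim21, an antibody receptor of the cytosol, had log2 fold changes of -0.26 and 0.20 and overlapped.

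All 10 tested RNA sensor and RNA-binding effector genes had negative log2 fold changes (median -1.37), against 50.5% of all tested genes. This was the most uniform sign of the 6 groups. Not all of these genes passed the filter evenly. Eif2ak2 and Ifit3 reached its level in all chow libraries but not in all high-fat diet libraries, the diet in which they were lower. Dhx58 and Oas2 reached it in all libraries of neither diet. The signs of these genes are therefore weak evidence of a shared direction. Only 1 of the 10 lay lower without overlap, a share near the 7.87% of all tested genes. None of the 10 was called by edgeR, DESeq2 or limma-voom. In edgeR 2 were lower at an unadjusted p under 0.05, against 3.95% of all tested genes. Eif2ak2, the kinase PKR that halts translation on double-stranded RNA, was at 13.8, 21.2 and 27.4 CPM on chow and 0.065, 5.44 and 3.72 CPM on the high-fat diet. The groups did not overlap, and high-fat diet library 1 lay below the floor of 3 counts (log2 fold change -2.75, SE 1.02, adjusted p = 0.462). Adar, which edits adenosine to inosine in double-stranded RNA, was at 8.73, 38.1 and 45.0 CPM on chow and 0.780, 12.3 and 7.44 CPM on the high-fat diet. Chow library 1 was below high-fat diet library 2, so this pattern overlapped (log2 fold change -2.16, SE 0.84, adjusted p = 0.502).

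Ifit1, which binds viral RNA that lacks a host-type cap, was at 15.4, 28.0 and 43.5 CPM on chow and 1.76, 24.7 and 3.88 CPM on the high-fat diet. High-fat diet library 2 lay inside the chow range (log2 fold change -1.52, SE 0.81, adjusted p = 0.737), and without it the log2 fold change was -3.36, while without high-fat diet library 1 it was -1.01. Its span overlaps that of Ifit1bl1, a related gene. Oasl2, of the 2'-5' oligoadenylate synthetase family, was at 5.96, 21.9 and 29.6 CPM on chow and 14.3, 6.72 and 6.53 CPM on the high-fat diet. The lowest value of all was a chow library (log2 fold change -1.06, SE 0.70, adjusted p = 0.856). The cytosolic RNA sensors Ifih1 and Ddx58 were at 55.4 ± 32.6 and 34.6 ± 5.66 CPM on chow and 35.3 ± 13.1 and 23.5 ± 12.6 CPM on the high-fat diet (SD, n = 3 each), and both overlapped. Dhx58, Oas2 and Ifit3 had means of at most 3.00 CPM in either diet, and Ifit2 was at 14.3 and 8.35 CPM.

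The GTPases and other antiviral effectors showed a median log2 difference of -0.51. Among 9 tested members 7 were negative and 2 lower without overlap, against 50.5% and 7.87% of all tested genes. Of these 9, 0 were called by edgeR, DESeq2 or limma-voom. In edgeR 2 were lower at an unadjusted p under 0.05, against 3.95% of all tested genes. Gbp2, a guanylate-binding protein that coats the vacuoles of intracellular pathogens, was at 66.9, 66.7 and 51.3 CPM on chow and 24.6, 43.7 and 20.9 CPM on the high-fat diet. The diets were apart, with high-fat diet library 2 the nearest to chow (log2 fold change -1.05, SE 0.35, adjusted p = 0.393). Its neighbours on chromosome 3 were less separated. Gbp7 was at 26.6, 37.9 and 40.7 CPM on chow and 3.06, 9.79 and 38.4 CPM on the high-fat diet, where library 3 lay inside the chow range (log2 fold change -1.04, adjusted p = 0.853). Without that library the log2 fold change of Gbp7 was -2.44, and without high-fat diet library 1 it was -0.53. Gbp3, at 17.4 and 14.2 CPM, had a log2 fold change of -0.29.

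Rsad2, the radical enzyme viperin, was at 25.5, 20.4 and 19.4 CPM on chow and 2.08, 9.27 and 10.7 CPM on the high-fat diet. No library of the high-fat diet reached the lowest chow value (log2 fold change -1.56, SE 0.68, adjusted p = 0.617). Mx2 (15.7 and 11.1 CPM on chow and the high-fat diet), the membrane protein gene Ifi27 (36.2 and 25.9 CPM), the apoptosis factor gene Xaf1 (5.81 and 3.81 CPM), Ifi35 (29.7 and 31.1 CPM) and the tetherin gene Bst2 (2.22 and 3.00 CPM) all overlapped. Mx1 was at 0 in each library, which at these depths allows up to 0.195 CPM. Mx1 is also the member without a GENCODE exon length, and whether its annotation bears on the 0 was not tested. 

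Antigen presentation genes leaned least, at a median log2 difference of -0.25. Here 7 of 9 were negative (50.5% of all tested genes) and 1 was lower without overlap, a share near the 7.87% of all tested genes. Of these 9, 0 were called by edgeR, DESeq2 or limma-voom. In edgeR 1 was lower at an unadjusted p under 0.05, where 3.95% of all tested genes were. B2m (chromosome 2, 122147687 to 122153082), the light chain shared by all class I molecules, was at 435, 553 and 654 CPM on chow and 411, 307 and 345 CPM on the high-fat diet. The groups did not overlap but nearly met at 435 and 411 CPM (log2 fold change -0.63, SE 0.19, adjusted p = 0.298). Among the heavy chain genes on the list, H2-K1 was at 389, 264 and 357 CPM on chow and 348, 249 and 252 CPM on the high-fat diet, and the groups overlapped (log2 fold change -0.25, SE 0.20, adjusted p = 0.913). H2-D1 was at 159, 136 and 140.4 CPM on chow and 131, 138 and 161 CPM on the high-fat diet.

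The 2 diets were nearly level in H2-D1, at 145 ± 12.4 and 144 ± 15.7 CPM (SD, n = 3 each), and the 95% interval of its log2 fold change (-0.02) ran from -0.44 to 0.40. The class I heavy chain genes are close relatives, and how reads that fit several of them were counted is not given in the sources used here, so their separate levels are uncertain. The immunoproteasome subunits replace constitutive ones to favour class I peptides. Psmb8 was at 15.2, 3.91 and 24.5 CPM on chow and 2.73, 5.69 and 7.66 CPM on the high-fat diet, an overlapping pattern on chow library 2 low (log2 fold change -1.44, SE 0.85, adjusted p = 0.794). Psmb9 was at 3.05 ± 4.43 and 0.446 ± 0.563 CPM and Psmb10 at 3.83 ± 0.869 and 5.43 ± 4.10 CPM (SD, n = 3 each, chow and high-fat diet). The constitutive counterparts Psmb5, Psmb6 and Psmb7 had log2 fold changes of 0.37, -0.13 and -0.09, and all overlapped. The peptide transporter genes Tap1 (10.2 and 8.96 CPM) and Tap2 (22.8 and 23.5 CPM) and the class I transactivator gene Nlrc5 (16.1 and 12.3 CPM) overlapped as well.

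To compare genes with one another, mean CPM was divided by the summed exon length in kilobases from GENCODE M21, which 49 of the 50 genes have. On this scale B2m was the most abundant, at 636 CPM per kilobase on chow and 412 on the high-fat diet, followed by H2-K1 (115 and 96.4) and H2-D1 (56.3 and 55.7). Rnf213 came next on chow, at 33.7 CPM per kilobase, but on the high-fat diet its 13.5 was below the levels of Ifi35 and Ifi27 (17.7 in Ifi27). Isg15 was at 9.87 and 5.64, Irf9 at 10.7 and 3.62 and Eif2ak2 at 4.07 and 0.601 CPM per kilobase. Of the 48 tested genes 5 were under 1 CPM per kilobase over all libraries, among them Psmb9 and Dhx58. The annotation used for counting is not named in the sources used here, so these lengths are approximate. Reads may also be shared or lost where a member's span overlaps another gene, as for Stat2 with Apof, Eif2ak2 with Gm6548, Adar with Chrnb2, B2m with Patl2, Ifi27 with Ifi27l2a and Nlrc5 with a Riken-named gene, since the strand setting is not given in the sources used here.

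**Figure D3:**
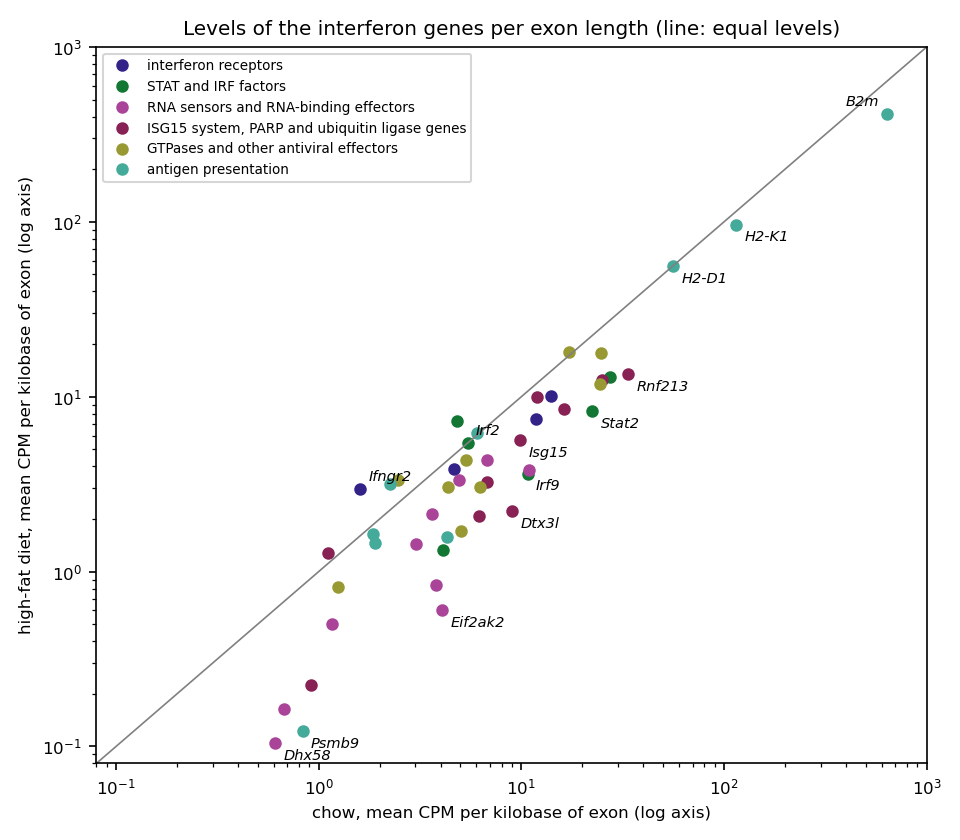
Mean level per exon length in chow (horizontal, log axis) and the high-fat diet (vertical, log axis), 1 point per tested gene coloured by role, with the line of equal levels. Points of the transcription factor, RNA sensor and ligase groups lie mostly below the line, and H2-D1 and Irf2 lie on it.

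The promoter letters that STAT and IRF complexes are known to recognise were looked up because many members lay lower together. RefSeq promoter windows (GRCm38.p6, 250 bases before to 50 after a start site) were matched for 40 of the 50 genes and searched on both strands for the ISRE core (GAAA, any 2 bases, GAAA) and the GAS letters (TTC, any 3 bases, GAA). An ISRE match was found for 16 of 40 members, against 3.99% of all 27025 genes with a window, and a GAS match for 12 of 40, against 9.55%. The list holds interferon-stimulated genes by choice, so shares above the background came with the list and say nothing about the diets. Stretches of 100 bases before the start are shown for 5 of the 14 members that lay lower without overlap, chosen because they hold a match, and for Ifit1, Isg15 and Irf2, which overlapped between diets. Each stretch was placed to include the match, so its distance from the start differs between genes. The sequences run 5′ to 3′ on the gene's strand, and capitals mark ISRE matches in all but Irf1, where they mark GAS, and Irf2, where they mark an ISRE and then a GAS.

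Stat2 (chr10:128270248-128270347, plus strand): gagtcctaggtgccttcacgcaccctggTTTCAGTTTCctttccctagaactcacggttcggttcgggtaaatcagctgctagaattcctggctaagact
Irf1 (chr11:53769878-53769977, plus strand): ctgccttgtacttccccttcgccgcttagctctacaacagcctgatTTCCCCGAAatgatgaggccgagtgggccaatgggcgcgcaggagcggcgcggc
B2m (chr2:122147503-122147602, plus strand): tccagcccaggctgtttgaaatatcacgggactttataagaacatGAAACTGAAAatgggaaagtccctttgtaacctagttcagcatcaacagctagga
Gbp2 (chr3:142620559-142620658, plus strand): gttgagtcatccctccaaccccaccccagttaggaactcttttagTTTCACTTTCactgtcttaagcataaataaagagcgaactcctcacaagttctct
Rsad2 (chr12:26456518-26456617, minus strand): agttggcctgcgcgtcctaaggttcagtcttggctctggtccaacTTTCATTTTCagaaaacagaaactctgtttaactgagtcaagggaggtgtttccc
Ifit1 (chr19:34640749-34640848, plus strand): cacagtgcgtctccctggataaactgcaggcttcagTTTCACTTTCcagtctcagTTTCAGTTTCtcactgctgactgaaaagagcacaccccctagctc
Isg15 (chr4:156200836-156200935, minus strand): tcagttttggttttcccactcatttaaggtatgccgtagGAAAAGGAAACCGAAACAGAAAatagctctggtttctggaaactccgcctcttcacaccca
Irf2 (chr8:46739495-46739594, plus strand): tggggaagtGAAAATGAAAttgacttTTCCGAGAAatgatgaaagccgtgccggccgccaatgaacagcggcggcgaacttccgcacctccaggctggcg

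In Isg15 the capitals are 3 overlapping ISRE matches, and Ifit1 holds 2 separate ones. Eif2ak2, not shown, holds both motifs. The windows of Rnf213, Helz2, Dtx3l, Irf9, Irf7 and Parp12, which also lay lower without overlap, hold neither motif, which says only that these letters are not in these windows. The 15 tested members with an ISRE match had a median of -0.81 on the log2 scale, and 5 lay lower without overlap. The 24 tested members with a window and no match had a median of -0.71, and 7 lay lower without overlap. Of all tested genes 7.87% lay lower without overlap, and no test was made between these groups.

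The rest of the pathway, 91 further genes from a list of ligands, kinases, inhibitors, adaptors and other targets, leaned less as a whole. Of these 71 were tested. In edgeR none was called, and DESeq2 and limma-voom each called 1. At an unadjusted p under 0.05 in edgeR there were 5 on the lower side and 5 on the higher. Of all tested genes 3.95% and 3.7% had such a p. Their median log2 fold change was -0.21, with 44 negative and 27 positive. Of the 30 tested further interferon-stimulated genes 23 were negative, against 50.5% of all tested genes, with a median of -0.44. Among them 6 lay lower without overlap and 0 higher, against 7.87% and 7.42%. The medians were 0.04 for the inhibitors, 0.37 for the sensing adaptors and kinases and 0.19 for the further antigen presentation genes. Of the 10 interferon genes listed as ligands, 8, Ifnb1 among them, had 0 reads in all libraries, Ifna4 had 3 reads in 1 high-fat diet library, and Ifng had 97 reads, all in chow library 3.

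Among signalling components, Jak1, a kinase of both receptor types, was at 361 ± 34.9 CPM on chow and 407 ± 45.3 CPM on the high-fat diet (SD, n = 3 each, log2 fold change 0.17, 95% interval -0.18 to 0.52). Jak2, which serves the interferon gamma receptor, was at 138 ± 27.6 and 124 ± 18.5 CPM, and Tyk2 at 7.78 ± 4.09 and 2.02 ± 1.90 CPM, with adjusted p of 0.989 and 0.872. Irf8, a factor best known from myeloid cells, was at 18.6 ± 12.4 and 14.2 ± 0.620 CPM, with a log2 fold change of -0.40 that turned to 0.30 without chow library 1.

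Socs3, an inhibitor of cytokine receptor signalling that is also an immediate early gene, was at 265, 313 and 248 CPM on chow and 88.3, 93.8 and 169 CPM on the high-fat diet. The diets were clearly apart, yet the adjusted p was 0.0658 (log2 fold change -1.23, SE 0.25). It was called by DESeq2 (adjusted p = 0.000547) and limma-voom (0.00357), and without high-fat diet library 3 (0.00296). Socs1, the inhibitor most specific to interferon signalling, was at 13.8 ± 8.86 and 26.4 ± 13.4 CPM and overlapped (log2 fold change 0.94, SE 0.65, adjusted p = 0.876). The chemokine gene Cxcl10 was at 25.4, 18.4 and 39.2 CPM on chow and 3.58, 11.7 and 4.80 CPM on the high-fat diet, without overlap (log2 fold change -2.05, SE 0.63, adjusted p = 0.318). The membrane protein gene Ifitm3 was at 247 ± 46.4 and 167 ± 30.1 CPM and the class I gene H2-Q4 at 269.8 ± 47.0 and 178 ± 3.16 CPM (adjusted p = 0.447 and 0.318).

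Some sensing adaptors and class I assembly factors lay on the higher side. In Ticam1, the adaptor of Toll-like receptor 3, the libraries were at 5.84, 10.6 and 7.98 CPM on chow and 23.2, 25.1 and 22.6 CPM on the high-fat diet. These groups did not overlap (log2 fold change 1.54, SE 0.56, adjusted p = 0.442). Of the 9 tested adaptor and sensing kinase genes 4 lay higher without overlap, against 7.42% of all tested genes. With edgeR 0 passed, and 1 was higher at an unadjusted p under 0.05, against 3.7% of all tested genes. Calnexin (Canx), a chaperone of class I heavy chains, was at 312 ± 35.0 and 442 ± 77.8 CPM, and Erap1, which trims peptides in the endoplasmic reticulum, at 28.5 ± 3.14 and 50.4 ± 9.82 CPM (SD, n = 3 each, chow and high-fat diet), with log2 fold changes of 0.50 and 0.82 (adjusted p = 0.435 and 0.537).

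Each high-fat diet library showed the lean. For each library the median over the 48 members of log2 CPM minus the chow mean was -0.10, 0.10 and 0.14 in chow libraries 1, 2 and 3 and -0.97, -0.65 and -0.51 in high-fat diet libraries 1, 2 and 3. All high-fat diet libraries lay below all chow libraries on this measure, while the same median over all tested genes stayed between -0.018 and 0.098. High-fat diet library 1 held the lowest of the 6 values for 19 of 48 members and chow library 3 the highest for 23. Without both of these libraries, a choice made after seeing the data, the median log2 fold change of the members was -0.73. In that fit 40 of 48 were negative, not all of them the same members, and 0 were called with edgeR (13 had an unadjusted p under 0.05). Across the 6 fits with 1 library left out the members' median ran from -0.97 to -0.72, and 36 of 48 members kept their sign in all 6.

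**Figure D4:**
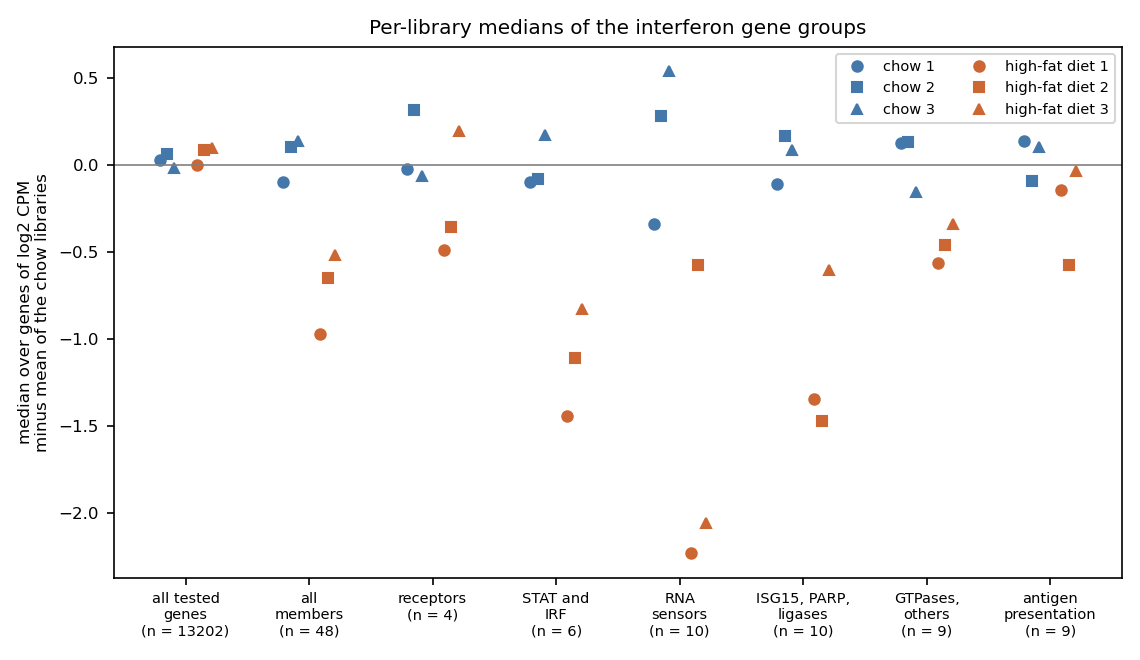
Median over genes of log2 CPM minus the mean of the chow libraries (vertical axis) for each library, for all tested genes, all 48 tested members and the 6 role groups (n is the number of genes). The high-fat diet libraries sit below the chow libraries for the members as a whole, the STAT and IRF factors, the RNA sensors, the ligase group and the GTPases, and overlap with chow for the receptors and antigen presentation.

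Immediate early and dissociation stress genes moved with the diets as well. Of 20 such genes 8 fell, against 0.167% of all tested genes, and 20 of 20 had a negative log2 fold change, against 50.5%, with a median of -1.18. Their summed level was 24110, 28708 and 30402 CPM in chow libraries 1, 2 and 3 and 10539, 11403 and 15349 CPM in high-fat diet libraries 1, 2 and 3. These sums and the members' medians placed the 6 libraries in the same order, from high-fat diet library 1 as the lowest to chow library 3 as the highest. The order of the sums depended on the heat-shock genes Hspa1a and Hspa1b. In chow library 3 they were at 5967 and 6833 CPM, and in high-fat diet library 1 at 941 and 1076 CPM. Fos had another order, at 2348, 2310 and 2232 CPM in chow libraries 1, 2 and 3. In high-fat diet libraries 1, 2 and 3 it was at 922, 506 and 1031 CPM. The part of this response in the interferon gene values was not tested.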

How the data were processed

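RNA-seq libraries of sorted satellite cells, 3 per diet, were analysed from the counts that the authors deposited, 1 file per library holding unnormalized whole-number reads per Entrez gene ID. Bowtie2, featureCounts and the builds GRCm38 and mm10 are named in the submitters' processing notes. Versions, strand setting and treatment of multiply mapped reads are not given in the sources used here. Symbols came from the RefSeq gene table of GRCm38.p6 (25275 of 27179 IDs) and GENCODE M21 (18 more), and all coordinates are GRCm38.

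Counts were fitted in R 4.3.3 with edgeR 4.0.16 (filterByExpr with a minimum count of 10, TMM, glmQLFit, glmQLFTest, two-sided, diet as the only factor, 6 libraries), adjusted over all 13202 tested genes. Standard errors came from the fold change and its F statistic. The fit was tested on simulated data. Every pair of libraries differed beyond sampling noise. Alternatives used DESeq2 1.42.0, limma 3.58.1 (voom), other scalings and filters, and left out libraries.

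All members were accounted for. Full values were given for called members, 12 fixed by name (receptors, Stat2, Irf1, Irf9, Isg15, B2m, H2-K1, H2-D1, Psmb8) and the 12 others with the smallest p. Other pathway genes were named by a like rule, and 1 result under it is not reported here. Remaining names were picked with their values in view. The members and lists were chosen with earlier results of these data known. Intervals and floors cover the spread between libraries or counting error only.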

Additional observations from a re-analysis of the deposited data

How the results depend on the processing

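The count of all genes called, 34 in the reported fit, was 163 with no filter, 198 with DESeq2 and 99 with limma-voom, and 9 to 44 when 1 library was left out (1 without high-fat diet library 1 and chow library 3, chosen after seeing the data). Members called, 2 as reported, were 7 with no filter, 5 with DESeq2, 3 with limma-voom, 1 with upper quartile scaling and 1 with total counts, and 0 to 2 with 1 library left out, where 11 to 15 members were lower at an unadjusted p under 0.05 in edgeR, and 0 without both libraries. Pathway genes called were 1, namely Socs3, with no filter, DESeq2, limma-voom, robust dispersions, an adjusted p under 0.1 and the replicate block, and 0 to 1 with 1 library left out. With the replicate block 45 genes and 2 members were called, and the members' median was -0.94. Deviations from the diet means had correlations from -0.026 to 0.035 in same-numbered libraries and from -0.056 to 0.033 in the others. High-fat diet libraries 1 and 2 correlated best with their own number, and high-fat diet library 3 did not. Correlations this small cannot decide whether same-numbered libraries were paired, and the labels name no pairing. Of the 38 single genes tested under 17 alternatives 3 changed sign. H2-D1 went to 0.0027 with upper quartile scaling and to 0.030 without high-fat diet library 1 and chow library 3, and ran from -0.11 to 0.060 with 1 library left out (0.055, 0.0083 and 0.060 when high-fat diet library 1, high-fat diet library 2 and chow library 1 were dropped in turn). With 1 library left out Ifnar1 ran from -1.13 to 0.17 (without high-fat diet library 1) and Irf8 from -0.71 to 0.30 (without chow library 1). The cause was not tested. The common dispersion was 0.682, and members of a few CPM had intervals of several log2 units.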

Other observations

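Chow library 3 stood apart from the other chow libraries in several interferon genes. All 97 reads of Ifng, the gene of interferon gamma, were in this library (5.57 CPM). The chemokine gene Cxcl9 was at 3.45 CPM there, 0.942 and 0 CPM in chow libraries 1 and 2, and at most 0.064 CPM on the high-fat diet. Psmb9 was at 8.15 CPM there and 0.126 and 0.874 CPM in chow libraries 1 and 2 and Psmb8 at 24.5 against 15.2 and 3.91 CPM. Nlrc5 went the other way, at 1.32 CPM there and 21.5 and 25.4 CPM in chow libraries 1 and 2, and so did Xaf1, at 0 against 9.61 and 7.81 CPM. The macrophage and monocyte markers summed to 56.8 CPM in this library, the highest of the 6, with 43.1 CPM in chow library 1. Most of the sum in chow library 3 was Cd68 (31.0 CPM), Lyz2 (17.5 CPM) and Cd14 (7.87 CPM). Csf1r was at 0 there and at 7.72 CPM in chow library 1. The lymphocyte markers summed to 1.89 CPM in chow library 3, the lowest of the chow libraries. These genes were chosen after their values were seen, and no test was made.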
